A study of Saccharomyces cerevisiae with 12 samples.

Results

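The tricarboxylic acid (TCA) cycle of budding yeast, Saccharomyces cerevisiae, was followed through 10 genes for its mitochondrial enzymes: CIT1, ACO1, IDH1, IDH2, KGD1, KGD2, LSC1, LSC2, FUM1 and MDH1. The genes were chosen by name, and each was read from its probe set, the group of array probes for 1 transcript. All 10 had 1 probe set each, and they make up 10 of the 5449 S. cerevisiae genes tested. The study measured RNA on Affymetrix yeast arrays in 4 strains, with 3 biological replicates per strain and 1 array per replicate. The groups are labelled nup60 (NUP60 replaced by KANR, a kanamycin resistance marker), ada2 (ADA2 replaced by KANR), nup60 ada2 (each of the genes replaced by KANR) and wild type. All 4 strains are labelled MATa, the a mating type, with the markers his3, leu2, met15 and ura3. The Nup60 protein anchors the basket on the nuclear side of the pore, and Ada2 belongs to SAGA, a coactivator that acetylates histones. Cultures of 50 mL in YEPD, a rich glucose medium, were grown at 30 °C and collected at mid-log phase.

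The TCA cycle oxidises the acetyl group of acetyl-CoA to carbon dioxide and passes the electrons to NAD+ and to the respiratory chain. It also supplies oxoglutarate and oxaloacetate for amino acid synthesis. In yeast growing on glucose, fermentation supplies most of the energy and many TCA and respiratory genes are held low by glucose repression. The Hap2/3/4/5 complex activates many of these genes when glucose runs short, with Hap4 as its regulated subunit. The Rtg1 and Rtg3 proteins of the retrograde pathway are known to take over the early steps, from CIT1 to IDH2, when respiration is impaired.

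The labels were first checked on the arrays. Values are log2 of the deposited intensity, and a level below 5.62, the 95th percentile of probe sets for another yeast (S. pombe), counts as background. NUP60 averaged 6.37 ± 0.18 on the nup60 arrays, 12.23 ± 0.04 on the ada2 arrays, 6.20 ± 0.16 on the nup60 ada2 arrays and 12.53 ± 0.04 on the wild-type arrays (SD, n = 3 each), so it was lower in the strains labelled with its deletion but above background there. ADA2 averaged 10.72 ± 0.02, 4.23 ± 0.19, 4.39 ± 0.16 and 10.95 ± 0.02 on the nup60, ada2, nup60 ada2 and wild-type arrays. The arrays labelled nup60 ada2 went against the labelled MATa ura3 genotype. On them URA3 averaged 12.77 and the alpha-cell gene HMLALPHA1 11.74, while the a-cell gene HMRA1 was below background at 4.38. In the other 3 groups URA3 and HMLALPHA1 were below background on every array, and HMRA1 averaged 11.17 to 11.47. Over 5 a-cell genes the mean level per array was 13.27 to 13.42 in nup60, 11.85 to 11.97 in ada2, 9.28 to 9.32 in the arrays labelled nup60 ada2 and 13.22 to 13.28 in wild type. The a-cell genes were therefore lower in ada2 too, where 4 of the 5 fell by the limma test below (23.0% of all genes fell). Among them were MFA1 (-2.71), an a-factor gene, and BAR1 (-2.93), the gene of a protease that degrades alpha-factor. Over 5 alpha-cell genes the mean level per array was 7.03 to 7.18 in nup60 and 7.12 to 7.17 in ada2. In the arrays labelled nup60 ada2 it was 13.23 to 13.47, and in wild type 6.94 to 6.98. Every comparison of the arrays labelled nup60 ada2 with another group is therefore also one between mating types and URA3 states, and these cannot be told apart from the deletions. A pair of arrays stood apart in the poly-A spike controls: array 3 labelled nup60 ada2 (8.48) and wild-type array 1 (8.33), with 6.43 to 7.49 on the other 10. Arrays 1 and 2 labelled nup60 ada2, at 6.98 and 7.49, also lay above the remaining arrays, which ran from 6.43 to 6.73. Leaving out the pair does not remove this difference between groups. The lowest correlation between arrays of 1 group was 0.993, and all members were above background on all arrays. Because each group is 1 strain, its deletion and any further change in that strain cannot be told apart. In RNA from whole cultures, fewer cells with a transcript and less of it per cell cannot be told apart either.

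In the nup60 arrays 7 of the 10 members rose against wild type and none fell, while in the ada2 arrays 3 rose (KGD1, LSC1 and LSC2) and 2 fell (CIT1 and IDH1). In the arrays labelled nup60 ada2 all 10 rose. The median member change was 0.35, 0.06 and 0.77 on the log2 scale in the 3 comparisons, against -0.02, -0.01 and -0.01 over all genes. Genes were tested with limma over all 12 arrays, with 0.05 as the limit on p after Benjamini-Hochberg adjustment. Many genes passed: 25.1% of all genes rose and 26.2% fell in nup60, 22.7% rose and 23.0% fell in ada2, and 36.1% rose and 37.1% fell in the arrays labelled nup60 ada2. These comparisons share the 3 wild-type arrays. The shares over all genes also apply to the counts of related gene lists given further on. Without the 2 arrays that stood apart, 9, 3 and 10 members rose and 0, 2 and 0 fell.

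**Figure D1:**
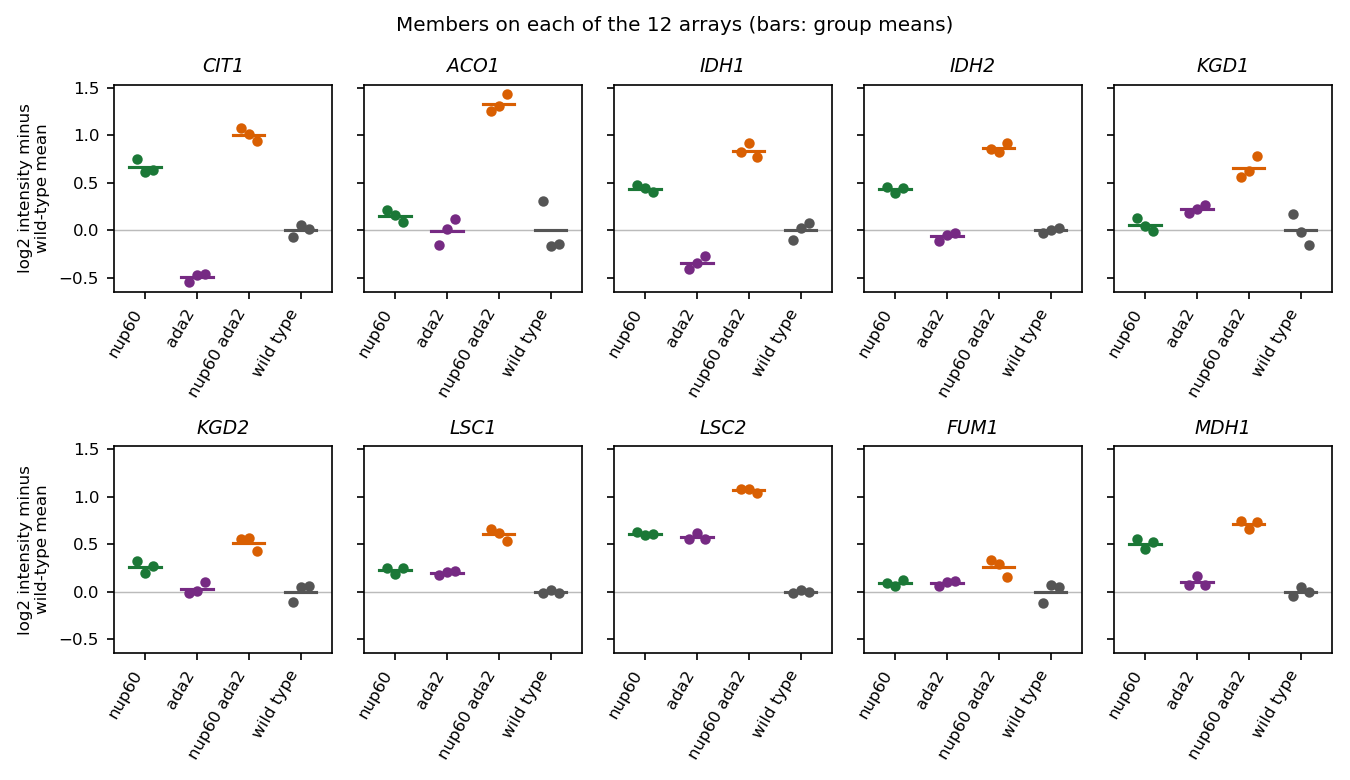
Log2 intensity of each member on each of the 12 arrays, given as the difference from its wild-type mean (points, arrays 1 to 3 from left to right within a group; bars, group means of n = 3). The arrays labelled nup60 ada2 are highest for all 10 genes, and CIT1 and IDH1 lie below wild type on the ada2 arrays.

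Citrate synthase, encoded by CIT1, joins acetyl-CoA to oxaloacetate and opens the cycle. CIT1 had log2 intensities of 13.69, 13.54 and 13.57 on the nup60 arrays, 12.39, 12.47 and 12.47 on the ada2 arrays, 14.01, 13.95 and 13.87 on the arrays labelled nup60 ada2, and 12.87, 12.99 and 12.95 on the wild-type arrays. No 2 of the 4 groups overlapped, and the order was ada2 below wild type, then nup60, then nup60 ada2. CIT1 rose by 0.67 ± 0.052 on the log2 scale in nup60 (1.59-fold, limma adjusted p = 2.66e-06; errors of changes are standard errors, with n = 3 arrays per group). In ada2 it fell by 0.49 ± 0.052 (limma adjusted p = 2.69e-05), the largest fall among the members. In the arrays labelled nup60 ada2 it rose by 1.01 ± 0.052, to 2.01-fold over wild type. CIT1 thus fell in one single deletion and rose in the other, and the direct contrast of nup60 with ada2 gave 1.16 ± 0.052 (limma adjusted p = 2.54e-08).

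Aconitase, the product of ACO1, converts citrate to isocitrate with an iron-sulfur cluster. ACO1 stood at 13.65, 13.59 and 13.52 on the nup60 arrays, 13.28, 13.45 and 13.56 on the ada2 arrays, 14.70, 14.74 and 14.87 on the arrays labelled nup60 ada2, and 13.74, 13.27 and 13.30 on the wild-type arrays. Only the nup60 ada2 group was separate from the others, and the levels in nup60, ada2 and wild type overlapped. Its change of 1.33 ± 0.12 there (2.52-fold, limma adjusted p = 1.42e-06) was the largest of the 10 members. In nup60 the change was 0.15 ± 0.12 (limma adjusted p = 0.299, 95% interval -0.11 to 0.41), and in ada2 it was -0.007 ± 0.12 (0.968, -0.27 to 0.25). Wild-type array 1 lay 0.46 above the mean of wild-type arrays 2 and 3 for this gene. Without that array, ACO1 passed in nup60, at 0.31 (limma adjusted p = 0.00849), and its ada2 value was 0.15 (0.147).

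The NAD+-dependent isocitrate dehydrogenase is an octamer of Idh1, the regulatory subunit, and Idh2, the catalytic one. IDH1 had 13.09, 13.05 and 13.01 on the nup60 arrays, 12.21, 12.27 and 12.34 on the ada2 arrays, 13.44, 13.53 and 13.38 on the arrays labelled nup60 ada2, and 12.51, 12.63 and 12.69 on the wild-type arrays. As for CIT1, the 4 groups were separate, with ada2 lowest. IDH2 had 13.94, 13.87 and 13.92 on the nup60 arrays, 13.37, 13.43 and 13.45 on the ada2 arrays, 14.33, 14.30 and 14.39 on the arrays labelled nup60 ada2, and 13.45, 13.48 and 13.50 on the wild-type arrays. Its ada2 and wild-type arrays overlapped. In nup60 the subunit genes rose alike, IDH1 by 0.44 ± 0.056 (limma adjusted p = 9.23e-05) and IDH2 by 0.43 ± 0.038 (5.93e-06). In ada2 IDH1 fell by 0.34 ± 0.056 (limma adjusted p = 0.000571), whereas the IDH2 value was -0.063 ± 0.038 (0.196). In the arrays labelled nup60 ada2 the rises were 0.84 ± 0.056 for IDH1 and 0.86 ± 0.038 for IDH2.

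The alpha-ketoglutarate dehydrogenase complex releases carbon dioxide from oxoglutarate and yields succinyl-CoA, with Kgd1 as its E1 and Kgd2 as its E2 component. KGD1 stood at 12.02, 11.94 and 11.89 on the nup60 arrays, 12.08, 12.12 and 12.17 on the ada2 arrays, 12.46, 12.52 and 12.68 on the arrays labelled nup60 ada2, and 12.07, 11.88 and 11.74 on the wild-type arrays. Its wild-type arrays were spread over the range of the nup60 arrays. KGD1 rose by 0.66 ± 0.082 in the arrays labelled nup60 ada2 (limma adjusted p = 2.42e-05). In nup60 the value was 0.056 ± 0.082 (limma adjusted p = 0.592), and without the 2 arrays that stood apart it was 0.14 (0.0386). The ada2 rise, 0.23 ± 0.082, was just past the threshold (limma adjusted p = 0.0434). That call was lost under 11 of the alternatives, among them a fit without wild-type array 3, where the value was 0.15 (0.154).

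KGD2 had 12.67, 12.54 and 12.61 on the nup60 arrays, 12.33, 12.34 and 12.44 on the ada2 arrays, 12.89, 12.90 and 12.76 on the arrays labelled nup60 ada2, and 12.23, 12.38 and 12.40 on the wild-type arrays. The ada2 and wild-type arrays overlapped, and the other groups were separate from them and from each other. KGD2 rose by 0.27 ± 0.059 in nup60 (limma adjusted p = 0.00368) and by 0.51 ± 0.059 in the arrays labelled nup60 ada2 (1.35e-05), with 0.034 ± 0.059 in ada2 (0.67). The single deletions thus differed in which component passed, KGD2 in nup60 and KGD1 in ada2. The contrast of nup60 with ada2 passed for KGD2 (0.23 ± 0.059, limma adjusted p = 0.00713) and not for KGD1 (-0.17 ± 0.082, 0.105), although the nup60 and ada2 arrays of KGD1 did not overlap.

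Succinyl-CoA ligase, made of the alpha subunit Lsc1 and the beta subunit Lsc2, is the step of the cycle that forms ATP directly. LSC1 stood at 13.40, 13.33 and 13.40 on the nup60 arrays, 13.32, 13.36 and 13.36 on the ada2 arrays, 13.80, 13.77 and 13.68 on the arrays labelled nup60 ada2, and 13.14, 13.17 and 13.13 on the wild-type arrays. LSC2 stood at 12.47, 12.45 and 12.45 on the nup60 arrays, 12.40, 12.46 and 12.40 on the ada2 arrays, 12.93, 12.93 and 12.89 on the arrays labelled nup60 ada2, and 11.83, 11.87 and 11.84 on the wild-type arrays. For each gene the nup60 and ada2 arrays overlapped, and both groups lay above wild type and below nup60 ada2. LSC2 rose by 0.61 ± 0.032 in nup60 (limma adjusted p = 8.58e-08), by 0.58 ± 0.032 in ada2 (1.78e-07) and by 1.07 ± 0.032 in the arrays labelled nup60 ada2 (2.96e-10). LSC1 rose by 0.23 ± 0.038, 0.20 ± 0.038 and 0.61 ± 0.038 in the same 3 groups, so both genes rose in all 3 deletion groups, and did so under every alternative that was run. Between the single deletions the difference was 0.028 ± 0.038 for LSC1 (limma adjusted p = 0.576, 95% interval -0.06 to 0.11) and 0.036 ± 0.032 for LSC2 (0.371, -0.03 to 0.11).

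The subunit genes of 1 enzyme were compared as the difference of their log2 values on each array, relative to the mean difference in wild type. LSC1 minus LSC2 averaged -0.38 in nup60, -0.37 in ada2 and -0.47 in the arrays labelled nup60 ada2. The wild-type arrays lay within -0.01 and 0.01, so LSC2 gained on LSC1 by more than the spread between arrays in all 3 deletion groups. IDH1 minus IDH2 averaged -0.28 in ada2 (-0.30 to -0.24), apart from the wild-type range of -0.07 to 0.05, with 0.01 in nup60 and -0.03 in nup60 ada2. KGD1 minus KGD2 ranged from -0.22 to 0.29 over the wild-type arrays and overlapped with every deletion group. These differences were not tested.

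**Figure D2:**
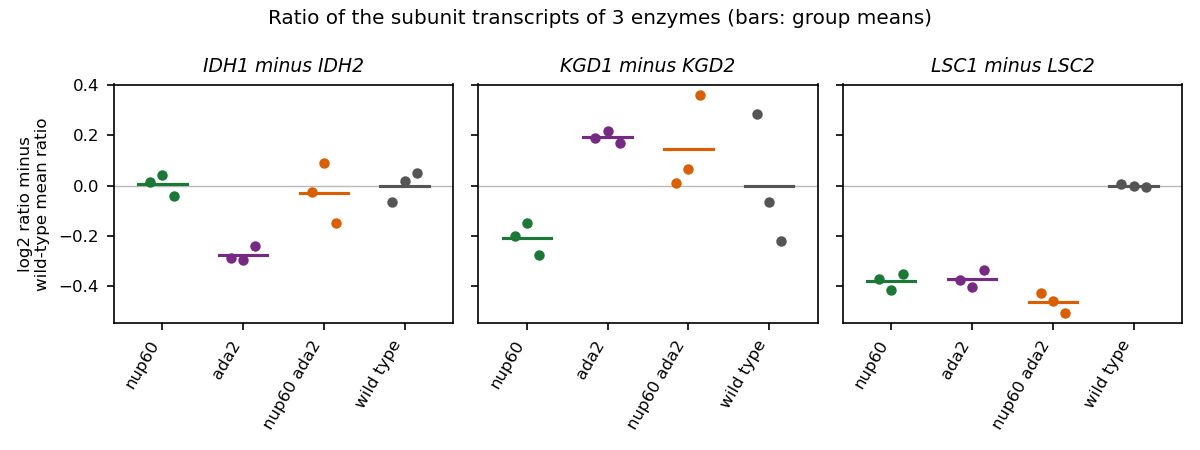
Log2 ratio of the subunit transcripts of isocitrate dehydrogenase, alpha-ketoglutarate dehydrogenase and succinyl-CoA ligase on each array, relative to the wild-type mean ratio (points, arrays 1 to 3; bars, group means of n = 3). LSC1 minus LSC2 lies between -0.51 and -0.34 on all 9 deletion arrays and near 0 on the wild-type arrays.

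Fumarase, encoded by FUM1, hydrates fumarate to malate and is found in mitochondria and in the cytosol from the 1 gene. FUM1 had 13.40, 13.37 and 13.43 on the nup60 arrays, 13.37, 13.41 and 13.42 on the ada2 arrays, 13.64, 13.60 and 13.47 on the arrays labelled nup60 ada2, and 13.19, 13.38 and 13.36 on the wild-type arrays. The nup60, ada2 and wild-type arrays overlapped, and the arrays labelled nup60 ada2 lay above them. FUM1 moved least of the members in the arrays labelled nup60 ada2, where it rose by 0.26 ± 0.057 (limma adjusted p = 0.00176). In nup60 and ada2 the values were 0.091 and 0.090 (limma adjusted p = 0.205 and 0.223), with 95% intervals of -0.04 to 0.22 in each.

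Mitochondrial malate dehydrogenase, encoded by MDH1, closes the cycle by regenerating oxaloacetate. MDH1 had 13.39, 13.29 and 13.36 on the nup60 arrays, 12.91, 13.00 and 12.92 on the ada2 arrays, 13.58, 13.49 and 13.57 on the arrays labelled nup60 ada2, and 12.79, 12.89 and 12.83 on the wild-type arrays. The groups were separate and ran from wild type through ada2 and nup60 to nup60 ada2, although the step between wild type and ada2 was small. MDH1 rose by 0.51 ± 0.044 in nup60 (limma adjusted p = 5.85e-06) and by 0.71 ± 0.044 in the arrays labelled nup60 ada2 (8.38e-08). In ada2 the value was 0.11 ± 0.044 (0.0757), and it passed after median centring (0.13, 0.0377) and after quantile normalization (0.13, 0.0253).

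**Figure D3:**
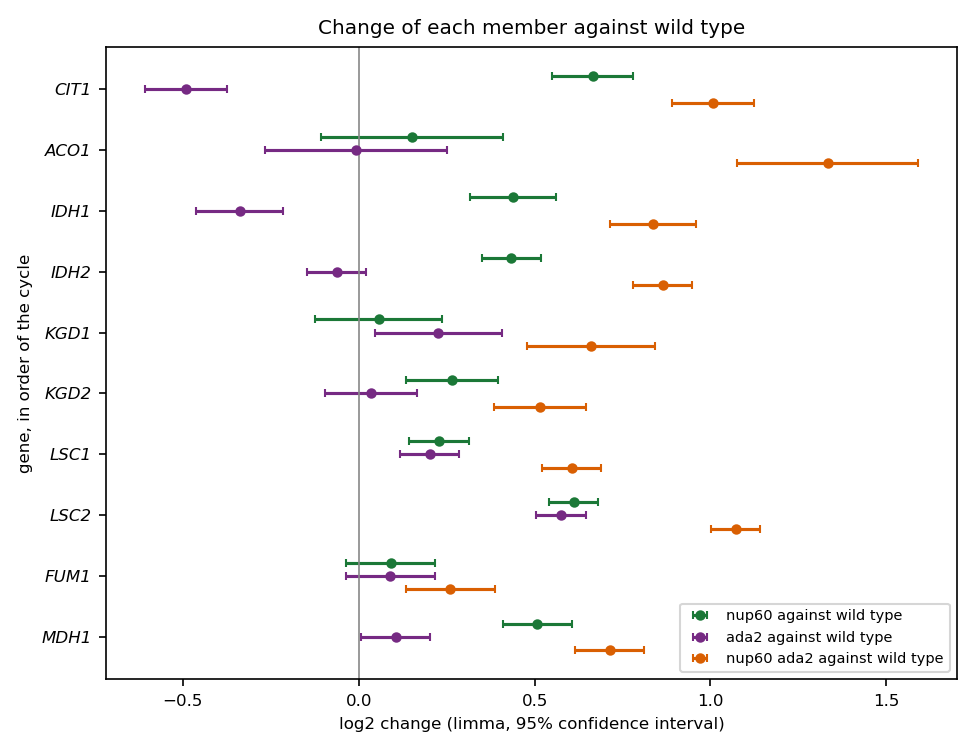
Log2 change of each member against wild type in nup60, ada2 and nup60 ada2 (points, limma estimates over 3 arrays per group; bars, 95% confidence intervals). The values range from -0.49 for CIT1 in ada2 to 1.33 for ACO1 in the arrays labelled nup60 ada2.

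The arrays labelled nup60 ada2 were also set against each single deletion. These comparisons span mating type and URA3 state as well as the labelled second deletion. Against nup60 all 10 members rose (33.1% of all genes rose and 30.6% fell), by 0.17 (FUM1) to 1.18 (ACO1), with a median of 0.39. Against ada2 all 10 rose as well (35.2% of all genes rose and 33.9% fell), by 0.17 (FUM1) to 1.499 (CIT1), with a median of 0.55. For all members the 3 arrays labelled nup60 ada2 lay above the 3 arrays of either single deletion. The share of all genes that separated in this way was not counted. The FUM1 calls were the least secure, with limma adjusted p = 0.0242 against nup60 and 0.0214 against ada2, and after median centring 0.0645 and 0.108. In the direct contrast of nup60 with ada2, 5 members were higher in nup60 and none lower (25.9% of all genes rose and 26.9% fell). The 5 were CIT1, IDH1, IDH2, KGD2 and MDH1 (0.40 ± 0.044). Without the 2 arrays that stood apart, ACO1 also passed upward (0.16, limma adjusted p = 0.0461) and KGD1 downward (-0.17, 0.00993).

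The interaction asks whether the labelled double deletion departs from the sum of the single changes on the log2 scale. It was positive and passed for 6 of 10 members (20.6% of all genes passed upward and 18.5% downward), with a median of 0.30 against 0.02 over all genes. Of all calls in this contrast 52.7% were upward, or 42.7% after median centring. Among the members, ACO1, CIT1, IDH1 and IDH2 had the 4 largest departures. The sum of the single changes was 0.145 for ACO1, 0.17 for CIT1, 0.10 for IDH1 and 0.37 for IDH2, and the changes measured in the arrays labelled nup60 ada2 exceeded it by 1.19 ± 0.17, 0.84 ± 0.074, 0.74 ± 0.079 and 0.50 ± 0.054. The limma adjusted p of these 4 was at most 0.000342. Further along the cycle the departure was 0.38 ± 0.12 for KGD1 (limma adjusted p = 0.0254) and 0.18 ± 0.054 for LSC1 (0.0257). Each call was lost when any of 5 single arrays was left out, and the 5 were not the same arrays for KGD1 and LSC1. The limma adjusted p then reached 0.0646 for KGD1 and 0.0643 for LSC1. The LSC1 call was also lost after median centring (0.103) and with a replicate block (0.0542). For KGD2, FUM1 and MDH1 the departure was 0.22, 0.08 and 0.10 (limma adjusted p = 0.0653, 0.46 and 0.226), and for LSC2 -0.11 ± 0.045 (0.0667). Without the 2 arrays that stood apart 8 members passed, KGD2 and FUM1 now among them at 0.31 and 0.19 (limma adjusted p = 0.00311 and 0.0064), and KGD1 stood at 0.23 (0.0326). Both single deletions carry the labelled MATa and ura3 state, and the part of mating type and URA3 in the interaction cannot be told apart from that of the second deletion.

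**Figure D4:**
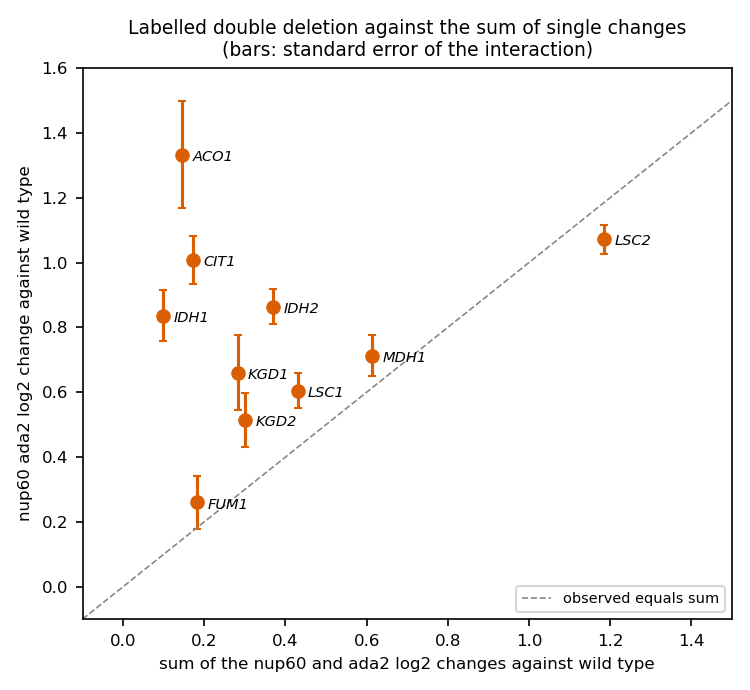
Log2 change of each member in the arrays labelled nup60 ada2 against wild type, plotted over the sum of its nup60 and ada2 changes (bars, standard error of the interaction). ACO1, CIT1 and IDH1 lie 0.74 to 1.19 above the line of equality, and LSC2 lies 0.11 below it.

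Succinate dehydrogenase, which oxidises succinate and passes its electrons to ubiquinone, is the step of the cycle between succinyl-CoA ligase and fumarase. All 4 of its subunit genes rose in nup60, SDH2, the iron-sulfur subunit, by 1.002 ± 0.073 (limma adjusted p = 1.44e-06) and SDH1, the flavoprotein subunit, by 0.67 ± 0.063. In the arrays labelled nup60 ada2 all 4 rose again, SDH2 by 2.02 ± 0.073 (limma adjusted p = 1.32e-09) and SDH3, with the smallest change, by 0.96 ± 0.058. The medians were 0.71 in nup60 and 1.48 in the arrays labelled nup60 ada2. In ada2 2 of 4 passed, SDH1 (0.28 ± 0.063) and SDH4 (0.27 ± 0.098, limma adjusted p = 0.0449). The SDH4 call was lost when any single nup60 or ada2 array, or array 2 labelled nup60 ada2, was left out. It was also lost without wild-type array 1, where the value was 0.17 (limma adjusted p = 0.137). The interaction passed upward for 3 of the 4 genes, with 0.88 ± 0.10 for SDH2, 0.62 ± 0.089 for SDH1 and 0.53 ± 0.081 for SDH3.

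The pyruvate dehydrogenase complex feeds acetyl-CoA into the cycle and shares its E3 component, Lpd1, with the alpha-ketoglutarate dehydrogenase complex, to which the small protein Kgd4 also belongs. Of 6 such genes, 3 rose in nup60, 4 in ada2 and 5 in the arrays labelled nup60 ada2, where PDX1, the E3-binding protein, fell by 0.19 ± 0.049. The medians were 0.07, 0.14 and 0.25. The nup60 count was the least secure: none of the 6 passed without nup60 array 1, and 1 passed without nup60 array 3. PDB1 in the arrays labelled nup60 ada2 (0.08) lost its call in 12 fits. LPD1 had 13.79, 13.78 and 13.80 on the nup60 arrays, 13.97, 14.02 and 14.01 on the ada2 arrays, 14.29, 14.32 and 14.33 on the arrays labelled nup60 ada2, and 13.71, 13.76 and 13.75 on the wild-type arrays. It was therefore higher in ada2 than in nup60, the reverse of the order of KGD2, its partner E2. LPD1 rose by 0.26 ± 0.031 in ada2 (limma adjusted p = 5.37e-05) and by 0.57 ± 0.031 in the arrays labelled nup60 ada2 (2.56e-08), with 0.049 ± 0.031 in nup60 (0.204). KGD4 followed the same order, with 0.44 ± 0.047 in ada2 (limma adjusted p = 2.69e-05) and 0.145 ± 0.047 in nup60 (0.0236), where the call was lost without wild-type array 1 (0.10, 0.0716) and in 3 other fits.

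Several cycle reactions have second enzymes in other compartments or with other cofactors. Of 7 such genes measured, 5 rose in nup60, 4 rose and 1 fell in ada2, and 5 rose in the arrays labelled nup60 ada2. Without the 2 arrays that stood apart, 5 rose and 2 fell in ada2. IDP2, the cytosolic NADP+-dependent isocitrate dehydrogenase, rose by 0.78 ± 0.051 in nup60 (limma adjusted p = 5.53e-07) and by 1.68 ± 0.051 in the arrays labelled nup60 ada2 (3.68e-10). CIT3, a second mitochondrial citrate synthase, rose by 0.56 ± 0.057 in nup60, by 0.35 ± 0.057 in ada2 and by 1.65 ± 0.057 in the arrays labelled nup60 ada2. After quantile normalization the CIT3 change in nup60 was 0.32 (limma adjusted p = 0.0106). CIT2, the peroxisomal citrate synthase and a classical target of the retrograde pathway, rose by 0.21 ± 0.065 in nup60, 0.20 ± 0.065 in ada2 and 0.69 ± 0.065 in the arrays labelled nup60 ada2, so it did not share the fall of CIT1 in ada2. The CIT2 calls in the single deletions were lost without any of several arrays, for example without wild-type array 1 (0.17 in nup60 and 0.16 in ada2, limma adjusted p = 0.0655 and 0.0857). Cytosolic MDH2 had another order than MDH1. It rose by 0.35 ± 0.080 in nup60 and 0.53 ± 0.080 in ada2 and stood at -0.13 ± 0.080 in the arrays labelled nup60 ada2 (limma adjusted p = 0.162), or -0.23 without array 2 of that group (0.0106).

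Carriers and enzymes that move intermediates into and out of the cycle did not go one way. Nor did all genes, of which 25.1% rose and 26.2% fell in nup60, and 22.7% rose and 23.0% fell in ada2. In the arrays labelled nup60 ada2, 36.1% rose and 37.1% fell. Of 13 genes, 2 rose and 6 fell in nup60, 5 rose and 5 fell in ada2, and 3 rose and 6 fell in the arrays labelled nup60 ada2, with medians of -0.10, 0.00 and -0.13. Without wild-type array 1, or without ada2 array 3, 3 rose in ada2. In nup60, 4 fell without wild-type array 1, nup60 array 2 or nup60 array 3. The falls in the arrays labelled nup60 ada2 ran from 5, without array 1 of that group, to 8, without wild-type array 1. Without the 2 arrays that stood apart, 7 fell in nup60 and 9 in the arrays labelled nup60 ada2. The succinate-fumarate carrier gene SFC1 rose by 0.72 ± 0.10, 0.78 ± 0.10 and 2.01 ± 0.10 in the 3 groups. Its wild-type arrays, at 5.77 to 5.97, lay close to the background level of 5.62. The oxodicarboxylate carrier gene ODC1 stood at -0.10 ± 0.080 in nup60 (limma adjusted p = 0.334) and rose by 0.67 ± 0.080 in ada2 and by 1.15 ± 0.080 in the arrays labelled nup60 ada2. OAC1, the oxaloacetate carrier gene, fell by 1.02 ± 0.059 in ada2 (limma adjusted p = 2.76e-07) and by 0.56 ± 0.059 in the arrays labelled nup60 ada2, with 0.04 ± 0.059 in nup60 (0.638). Among the pyruvate carrier genes, MPC3 rose by 1.15 ± 0.072 in the arrays labelled nup60 ada2 and MPC2 fell in them by 0.385.

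Among 12 regulators, HAP4, the regulated subunit of the Hap2/3/4/5 activator, and CAT8, an activator of genes for growth without glucose, changed most in nup60 and in the arrays labelled nup60 ada2. HAP4 stood at 11.85, 11.78 and 11.67 on the nup60 arrays, 10.54, 10.83 and 10.82 on the ada2 arrays, 13.29, 13.39 and 13.52 on the arrays labelled nup60 ada2, and 10.88, 10.68 and 10.55 on the wild-type arrays. The ada2 and wild-type arrays overlapped, and the other groups lay above them. HAP4 rose by 1.06 ± 0.10 in nup60 (2.09-fold, limma adjusted p = 1.17e-05) and by 2.70 ± 0.10 in the arrays labelled nup60 ada2 (6.48-fold, 1.83e-09), with 0.028 ± 0.10 in ada2 (0.843). Its interaction was 1.603 ± 0.14 (limma adjusted p = 1.93e-05). Of the genes for the DNA-binding partners of Hap4, HAP3 fell in the arrays labelled nup60 ada2 by 0.33, while HAP2 and HAP5 were at 0.05 and 0.01 there. CAT8 had another order, with 0.98 ± 0.11 in nup60, 1.90 ± 0.11 in ada2 and 2.63 ± 0.11 in the arrays labelled nup60 ada2. Of the retrograde pathway genes, RTG1 fell in ada2 by 0.40 (limma adjusted p = 0.0183, or 0.0696 without ada2 array 1), while RTG2 and RTG3 were at 0.165 and 0.08 there. In all, 4 of the 12 rose in nup60, 3 rose and 1 fell in ada2, and 2 rose and 3 fell in the arrays labelled nup60 ada2. Without the 2 arrays that stood apart, 6 rose and 2 fell, 7 rose and 1 fell, and 5 rose and 3 fell in the same comparisons. Leaving out wild-type array 1 or array 3 labelled nup60 ada2 alone each gave 5 rises in ada2. Without array 3 labelled nup60 ada2, 4 rose in the arrays labelled nup60 ada2.

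**Figure D5:**
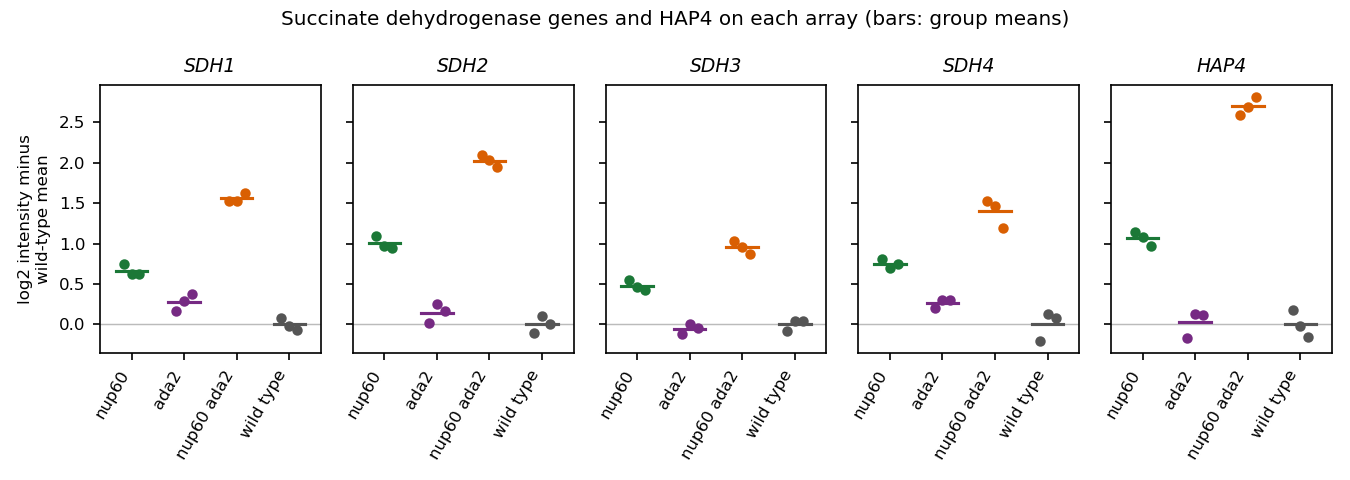
Log2 intensity of the 4 succinate dehydrogenase subunit genes and of HAP4 on each array, as the difference from the wild-type mean (points, arrays 1 to 3 within a group; bars, group means of n = 3). HAP4 averages 1.06 above wild type in nup60 and 2.70 in the arrays labelled nup60 ada2, while its ada2 arrays overlap with wild type.

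Other markers moved in the same groups. Of 10 genes that are held low by glucose, 5 rose and 2 fell in nup60, 7 rose in ada2, and 7 rose and 2 fell in the arrays labelled nup60 ada2. Their mean level per array was 9.23 to 9.27 in nup60, 9.23 to 9.24 in ada2, 9.81 to 9.88 in the arrays labelled nup60 ada2 and 8.80 to 8.86 in wild type. Within the list HXK1, a hexokinase gene, rose by 2.48, 1.47 and 3.13 in the 3 groups, while ADH2, whose transcript appears when glucose is used up, fell by 0.54 in nup60 and by 1.08 in the arrays labelled nup60 ada2. All 5 general stress genes rose in nup60 and in the arrays labelled nup60 ada2, and 3 of 5 in ada2. Their mean level per array was 13.07 to 13.24, 11.20 to 11.28, 13.18 to 13.27 and 10.38 to 10.44 in nup60, ada2, nup60 ada2 and wild type. The part of growth state and of the stress response in the member changes was not tested.

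The array pair that stood apart in the spike controls also had like shifts for several of the members. On array 3 labelled nup60 ada2 and on wild-type array 1, ACO1 lay 0.15 and 0.46 and KGD1 0.19 and 0.27 above the mean of the other 2 arrays of the group. CIT1, IDH1, KGD2 and FUM1 lay below it on each, at -0.10 to -0.18. LSC1 and LSC2 also lay below it, at -0.10 and -0.04 on array 3 labelled nup60 ada2 and -0.01 and -0.03 on wild-type array 1. IDH2 and MDH1 went opposite ways, at 0.08 and 0.035 on array 3 labelled nup60 ada2 and -0.05 and -0.07 on wild-type array 1. The log2 difference between the 3′ and 5′ control probe sets of WBP1, a measure that rises as RNA is degraded or labelled short, was 1.37 and 1.16 on these arrays and 0.95 to 1.17 on the other 10. For TDH1 it was 0.51 on array 3 labelled nup60 ada2, against 0.24 and 0.26 on the others of its group, and 0.86 on wild-type array 1, against 0.61 and 0.64. The TDH1 difference also moved with the groups, at 0.16 to 0.26 in nup60, 0.44 to 0.49 in ada2, 0.24 to 0.51 in nup60 ada2 and 0.61 to 0.86 in wild type, so it was lower in every deletion group than in wild type. Its part in the member values was not tested.

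By distance over the 3 changes against wild type, the 5 other genes nearest to the median member profile were YOR385W, SHH3, RRT6, YEL1 and CLG1. SHH3, a paralogue of SDH3, was at 0.37 in nup60, 0.04 in ada2 and 0.84 in the arrays labelled nup60 ada2, against member medians of 0.35, 0.06 and 0.77. The distances were 0.06 to 0.08 on the log2 scale. The likeness is a description over 4 group means.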

How the data were processed

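RNA of 12 cultures was measured, 3 arrays for each of 4 strains. The deposited values are 1 intensity per probe set, and the submitters' processing notes name RMA in Affymetrix Expression Console 1.1. They were on a linear scale, and log2 was taken here with no further normalization. Of 10928 probe sets, 213 were controls or reporters, 1746 were for S. pombe and 3470 had no gene in the pairing table. The 5498 S. cerevisiae probe sets stood for 5449 genes, with the highest-mean probe set taken for 47 genes with several. Names came from a RefSeq table (assembly R64), and no sequence was used.

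All 12 arrays entered 1 limma fit of group means (version 3.58.1, under R 4.3.3) with 7 contrasts, and p-values were adjusted over all 5449 genes within a contrast. Signal over background stands in for depth, and the number of arrays limits the precision. The procedure was tested on simulated data. Members and gene lists were chosen with earlier results of these data known. Genes named are the 10 members, the deleted genes, members of the lists that passed, had the largest changes or were needed to read a member, the label markers, and the 5 nearest profiles. Alternatives were other scalings, a filter on dim genes, other moderation, averaged probe sets, separate fits of the groups compared, a replicate block and the removal of arrays. Replicate numbers gave no sign of pairing: only 1 of 12 arrays correlated best with its own number, after group means were subtracted. With 3 arrays per group this check cannot exclude pairing.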

Additional observations from a re-analysis of the deposited data

Results flagged for a closer look

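The effect of one labelled deletion differed with the other, by the test of the interaction, for 6 of 10 members, all upward, against 20.6% of all genes upward and 18.5% downward. The interaction on the log2 scale was 0.84 for CIT1, 1.19 for ACO1, 0.74 for IDH1, 0.50 for IDH2, 0.38 for KGD1 and 0.18 for LSC1.

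In the 5 lists of related genes it passed in both directions. Among the succinate dehydrogenase genes it was 0.62 for SDH1, 0.88 for SDH2 and 0.53 for SDH3. Among pyruvate dehydrogenase and shared subunits it was 0.26 for LPD1 and -0.31 for PDX1. Among the isozymes it was 0.29 for CIT2, 0.74 for CIT3, 0.78 for IDP2 and 0.56 for IDP3, and -1.01 for MDH2. Among the carriers and feeders it was 0.58 for ODC1, 0.34 for ODC2, 0.51 for SFC1, 0.31 for DIC1, 0.42 for OAC1 and 0.57 for MPC3, and -0.42 for MAE1, -0.215 for MPC1 and -0.45 for MPC2. Among the regulators it was 1.603 for HAP4, and -0.44 for HAP2, -0.31 for HAP3 and -0.600 for MIG1. The largest limma adjusted p of these calls was 0.0477, that of MPC1. MPC1 did not hold when any single array of a deletion group was removed (limma adjusted p of up to 0.095). Nor did it hold when replicate number was blocked (0.0766). CIT2 and DIC1 failed after median centring (limma adjusted p = 0.0693 and 0.0633) and on removal of some single arrays. SFC1 failed after quantile normalization, where its value was 0.256 (limma adjusted p = 0.295). The arrays labelled nup60 ada2 also differ from the other groups in mating type and URA3, and this part of the interaction cannot be told apart from that of the deletions.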

How the results depend on the processing

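Over 1460 values of members under the alternatives, 1410 counted as the same, 32 lost the call and 16 gained it. The 1410 kept their side of the threshold, and include any uncalled values that changed sign by less than the standard error. A further 2 uncalled values changed sign by more (ACO1 in ada2), and no called value turned. Leaving out 1 array at a time gave 7 to 8 members that passed in nup60, 4 to 5 in ada2, 10 in nup60 ada2 against wild type, 9 to 10 against either single deletion, 5 to 6 in nup60 against ada2, and 4 to 7 in the interaction. With a replicate block, 7, 4, 10, 10, 10, 5 and 5 members passed in the same order. The block ended the calls of KGD1 in ada2 (limma adjusted p = 0.0746), SDH4 in ada2 (0.0719) and LSC1 in the interaction (0.0542), among the members and succinate dehydrogenase genes. The interaction calls of KGD1 and LSC1 were each lost when single arrays were left out, with adjusted p up to 0.0646 and 0.0643, and that of LSC1 also after median centring (0.103). LSC2 passed downward in the interaction after median centring (-0.16) and quantile normalization (-0.15). Median centring moved the share of rises among all interaction calls to 42.7%, against 52.7%. Among the list genes, directions turned for IDP3 after quantile normalization (-0.14 in nup60 ada2 against wild type, -0.086 in nup60 against ada2), for CIT3 after it (-0.025, nup60 against ada2), and without the 2 arrays that stood apart for RTG2 (0.083, nup60 ada2 against nup60), HAP5 (0.082, nup60 ada2 against ada2, with -0.068 to 0.082 when 1 array was left out) and PYC2 (-0.18, interaction). The cause was not tested. Where levels were below background, the arrays give only a bound.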
